A study of Mus musculus with 2 samples.

Results

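New combinations of annotated splice sites are transcript models built from long reads. They join known splice sites of a gene in a way that no annotated transcript does. They were taken as every deposited model of the class NIC, as TALON names it, in a gene of the GENCODE M21 annotation, and models of both libraries were joined where the gene and the whole chain of introns were the same. Replicate 2 held 14904 such models among 92049, and replicate 1 held 14354 among 85714. Joined, they made 24139 distinct intron chains of 106342 spliced chains in annotated genes. The material was gastrocnemius, the large calf muscle, of female B6CASTF1/J mice aged 2 months, an F1 cross between B6 and Cast. The study has 1 group of 2 libraries and no treatment or control. Animal 4 gave replicate 2 and animal 3 gave replicate 1, with 2 µg of total RNA as input and spike-ins added to each. Both carry 1 donor identifier in the labels, and with 1 library per animal the p-values below cover counting error between these libraries only, not the spread between animals or preparations.

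During splicing, the spliceosome joins a donor site at the end of one exon to an acceptor site at the start of a later one. Skeletal muscle is known for extensive alternative splicing of its contractile genes, in which exons are included or left out and the first exon changes with the promoter. A short-read experiment sees such choices one junction at a time, whereas a long read shows which choices lie on the same molecule.

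Both libraries were muscle by their markers. The 8 skeletal muscle markers held 29.0% of the reads of replicate 2 and 29.4% of replicate 1, and the 3 hepatocyte markers had no read in either. Replicate 2 held 1359923 reads and replicate 1 held 1349298. Markers of other tissue differed between them: 6 adipocyte genes had 145 reads in replicate 2 against 1520 in replicate 1, and 5 myelin genes had 120 against 840. Genes of slow fibres differed the other way, with 4414 reads in replicate 2 against 422 in replicate 1 for Myh7, the slow myosin heavy chain, and 347 against 70 for Tnni1, the slow inhibitory troponin. In whole tissue, fewer cells of a type and less RNA per cell cannot be told apart. The part of these differences in the results was not tested.

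The label holds only in part. A total of 6841 chains, 28.3%, used at least 1 splice site that M21 does not annotate for their gene, with 12810 reads in replicate 2 and 11621 in replicate 1, which made up 19.0% and 16.2% of all reads on new combinations. Of the 6024 such sites, 1065 are annotated in another gene. A total of 5638 of the 6024 were also carried by a model of the same study classed as holding a new site. The remaining 17298 chains used annotated sites only. In 11186 chains every single junction was annotated, and only their combination on the molecule was new. These include 2509 chains sorted as intron retention, in which an annotated intron was kept. The 11186 chains had 65.4% of the class's reads in replicate 2, against 68.0% in replicate 1.

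The sequences below show the stretches by which several of the most abundant new combinations differ from the nearest annotated transcript. Each is 5′ to 3′ on the coding strand, from the M21 transcripts on build mm10, with flanks of up to 20 bases that stop at the ends of coding sequence. The first set is of annotated exons of under 10 bases that the new combination lacks, with the missing exon in capitals. The exons lie at 7:142442691-142442697 (Tnni2, plus strand), 17:8296527-8296530 (Mpc1, plus strand), 1:135803282-135803285 (Tnni1, plus strand), 9:25265302-25265306 (Sept7, plus strand) and 6:124716425-124716430 (Phb2, plus strand), and all are within annotated coding sequence.
Tnni2: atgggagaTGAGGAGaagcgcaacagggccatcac
Mpc1: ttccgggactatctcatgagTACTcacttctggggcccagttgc
Tnni1: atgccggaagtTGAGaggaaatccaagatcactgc
Sept7: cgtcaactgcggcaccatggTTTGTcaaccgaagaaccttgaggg
Phb2: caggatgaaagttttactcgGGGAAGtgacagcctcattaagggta

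The next set shows small moves and a gained exon. In Srl (16:4493878-4493880, minus strand) and Ctbp1 (5:33248684-33248686, minus strand) the capitals are 3 bases that the new combination keeps at an acceptor. In Map4k5 (12:69818499-69818501, minus strand) they are 3 bases that it leaves out. In Tmed2 (5:124543487-124543507, plus strand) they are a whole exon of 21 bases that it includes.
Srl: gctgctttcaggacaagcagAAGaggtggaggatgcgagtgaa
Ctbp1: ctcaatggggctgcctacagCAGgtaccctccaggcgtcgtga
Map4k5: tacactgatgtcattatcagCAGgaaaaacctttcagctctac
Tmed2: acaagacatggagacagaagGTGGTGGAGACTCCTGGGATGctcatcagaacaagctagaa

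The last pair is of the antizymes, inhibitors of ornithine decarboxylase whose messenger RNA is read with a programmed frameshift at a stop codon. M21 draws a small gap there, of 4 bases in the nearest transcript of each gene, at 10:80828292-80828295 (Oaz1, plus strand) and 9:65686269-65686272 (Oaz2, plus strand). The capitals are the bases of that gap, and the new combinations read straight through them.
Oaz1: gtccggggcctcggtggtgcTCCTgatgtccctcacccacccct
Oaz2: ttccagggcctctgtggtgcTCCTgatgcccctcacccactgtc

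New combinations took 4.96% of the reads of replicate 2 (95% Wilson interval 4.92% to 5.0%) and 5.31% of replicate 1 (5.27% to 5.35%), a mean of 5.13% ± 0.248 (SD, n = 2). Intervals throughout cover counting error only. For scale, models with a new splice site took 17.3% ± 0.346, truncated copies of annotated transcripts 7.00% ± 0.372 and annotated spliced transcripts 60.4% ± 0.326 (SD, n = 2 each). The median new combination was 3105.5 bases long in replicate 2 and 2852 in replicate 1 with 12 exons in both, against 2469 and 2425.5 bases and 8 exons for annotated spliced models.

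Most new combinations were rare. Of the 24139 chains, 15387 rested on 1 read in all, and 132 had at least 100. In all, 6585 chains (27.3%) were seen in both libraries, against 15.4% of chains with a new site, 27.9% of truncated chains and 69.3% of annotated ones. Among chains of at least 10 reads, 1505 of 1512 new combinations (99.5%) were seen in both. At that depth the other classes were alike, with 99.7% of chains with a new site, 99.1% of truncated chains and 99.9% of annotated ones. The class itself was not stable, since 5119 chains were classed NIC in both libraries, and 1217 chains that were NIC in one were classed as holding a new site in the other.

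They occurred in 6596 genes, and 98.3% of the chains lay in protein-coding genes. The share of genes with one was larger at greater depth: 15.4% of genes with 1 to 9 reads over both libraries had a new combination, against 95.5% of the 22 genes with 10000 or more. Atp2a1, the calcium pump of the sarcoplasmic reticulum and a very abundant messenger here, had 480 distinct chains, the most of any gene, yet they held 0.765% of its reads in replicate 2 and 0.788% in replicate 1, counted in models of any class. Of the models classed NIC alone, the values were 0.668% in replicate 2 and 0.501% in replicate 1. Ktn1, which encodes kinectin of the endoplasmic reticulum, had 125 chains, and those held 79.8% of its reads in replicate 2 and 82.4% in replicate 1, in models of any class. In 183 of the 5025 genes that had 20 reads or more in both libraries, new combinations held more than 50% of the reads in both libraries. In 58 cases 1 chain alone did so.

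The 4 kinds of change differed in number and in weight. New pairings, the chains that met the definition of none of the other kinds, were the most numerous with 11554 chains. Of these, 5660 used at least 1 splice site that M21 does not annotate for their gene. The same was true of 661 skipping chains, 161 first-exon chains and 359 retention chains. Since a new skip needs an unannotated junction, 810 new pairings still lack an exon of their nearest annotated transcript, each through junctions that are all annotated in other transcripts of the gene. Exon skipping came next with 6166 chains, then alternative first exons with 3545 and intron retention with 2874. By reads the order was different. Alternative first exons took 39.3% of the reads of new combinations in replicate 2 and 44.9% in replicate 1, and new pairings 42.5% and 37.8%, so that the order of these kinds was opposite in the libraries. Exon skipping took 14.9% in replicate 2 and 14.7% in replicate 1, and intron retention 3.35% in replicate 2 and 2.64% in replicate 1. Without Aldoa alone, first exons took 29.0% in replicate 2 and 29.9% in replicate 1 and new pairings 49.7% in replicate 2 and 48.1% in replicate 1.

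**Figure D1:**
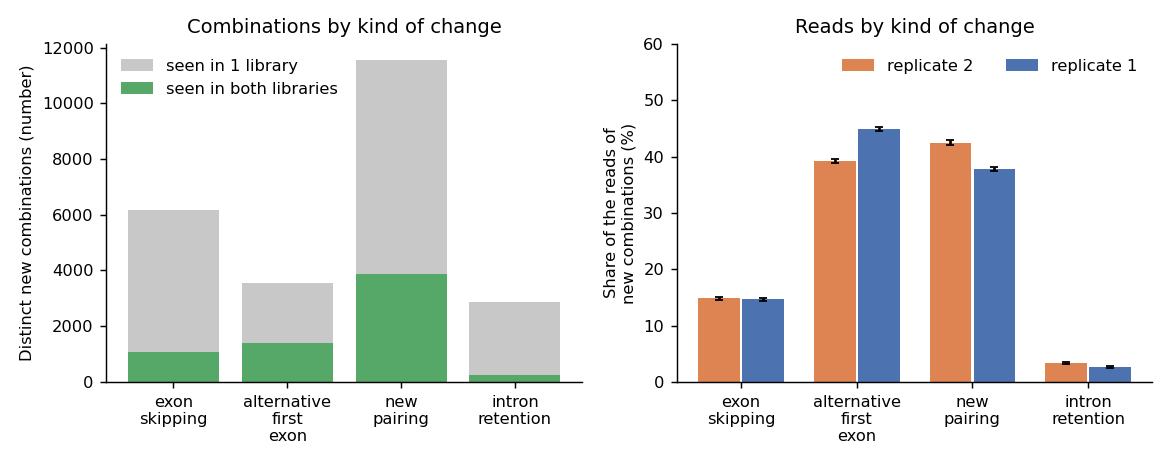
Left, the number of distinct new combinations of each kind, with the part seen in both libraries in green and the part seen in 1 library in grey. Right, the share of the reads of new combinations (%) in replicate 2 and replicate 1, with 95% Wilson intervals as bars. New pairings are the most numerous with 11554 chains, of which 5660 hold a site that M21 does not annotate for their gene. Intron retention is the least often seen in both libraries, 244 of 2874 chains.

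The kinds also differed in how often they recurred. Alternative first exons were seen in both libraries in 39.4% of chains, new pairings in 33.6%, exon skipping in 17.3% and intron retention in 8.49%. The share of chains with 1 read ran the other way, with 48.2%, 57.5%, 74.3% and 85.2% in the same order.

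Set against the nearest annotated transcript that spans the chain, a classification made after the data were seen, the chains differed as follows. In 5088 chains 1 or more neighbouring exons were skipped, in 2486 an acceptor moved, in 2239 a donor moved, in 2182 an annotated intron was kept and in 1672 an annotated or new exon was added. A further 7332 chains differed in 2 or more places. Of the reads of chains sorted as alternative first exons, those set apart as another first exon made up 49.8% in replicate 2 and 58.3% in replicate 1. The leading chain of Aldoa alone gave 9654 of these 13193 reads in replicate 2 and 15255 of 18768 in replicate 1. The rest were sorted under other changes, such as a moved site, an added or skipped exon or a gap. A moved donor can be that of the first intron, as in Mtfr1l, so part of the rest also changes the first exon.

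Exon skipping removed mainly exons of ordinary size. The 7805 distinct skipped exons had a median length of 113 bases, and 44.5% had a length that is a multiple of 3 (95% Wilson interval 43.4% to 45.6%). Loss of such an exon leaves the reading frame in step where it is coding and skipped alone. Of the 7805, 4164 were skipped alone by a junction and 6567 lay within coding sequence. Among all 146960 annotated internal exons of genes with a read, the median was 123 bases and 39.7% (39.4% to 39.9%) were multiples of 3, so the intervals do not overlap. Exons of a gene are not independent of each other. In chains of at least 10 reads the share was 48.6% (42.2% to 55.2%) of 222 exons.

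Among chains that differed only by skipped exons, those that lost 30 bases or less had 2800 reads in replicate 2 and 3912 in replicate 1, while longer losses had 7727 in replicate 2 and 7413 in replicate 1, and 1 chain of Tnni2 made up most of the reads on the short ones. Tnni2 encodes the fast inhibitory troponin, which holds the thin filament off at rest. Its chain without the exon of 7 bases had 1422 of 2490 reads in replicate 2 (57.1%), against 2817 of 3945 in replicate 1 (71.4%). No model of the gene, of any class, held that exon with its annotated boundaries. By model, the exon was in 0 of 2166 spanning reads in replicate 2, where a count of 0 allows up to 0.139%. In replicate 1 it was in 0 of 3668, where a count of 0 allows up to 0.0818%. These limits cover counting error only. Read sequences were not examined, so whether the RNA held the 7 bases was not tested. The exon lies 8 bases into the coding sequence, as printed above, and its length is no multiple of 3.

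In Tnni1, its slow counterpart, the models lacked the annotated exon of 4 bases in the same way. The chain had 299 of 347 reads in replicate 2 (86.2%), against 58 of 70 in replicate 1 (82.9%), with the exon in 0 of 327 and 0 of 67 spanning reads. Mpc1, a subunit of the mitochondrial pyruvate carrier, had 370 of 385 reads (96.1%) in replicate 2, against 368 of 390 (94.4%) in replicate 1 on a chain without an exon of 4 bases. In M21 that exon is set off from the next by an annotated intron of only 4 bases. Sept7, a septin of the cytoskeleton, had 101 of 116 reads (87.1%) in replicate 2, against 100 of 111 (90.1%) in replicate 1 on a chain without an exon of 5 bases. Phb2, a prohibitin of the inner mitochondrial membrane, had 150 of 157 (95.5%) in replicate 2 and 158 of 168 (94.0%) in replicate 1 without an exon of 6 bases, although that chain counts as a new pairing because all its junctions are annotated. By model, the short exon was in 0 spanning reads of both libraries in each of these genes.

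The same held across the annotation. A total of 44 annotated internal exons of 10 bases or less, in 39 genes, had at least 20 spanning reads in each library. Not 1 of them was included in the model of any read, against 7684 spanning reads in replicate 2 and 8825 in replicate 1. Of those of 11 to 15 bases, 48 of 51 were never included, and of those of 16 to 20 bases 28 of 52. From 21 to 30 bases 37 of 302 were never included, with a median inclusion of 97.6% in replicate 2 and 97.9% in replicate 1, and from 51 to 60 bases 63 of 1756. Arhgef10l had the shortest exon that more than 50% of reads held, 15 bases long, at 90.4% in replicate 2 and 85.7% in replicate 1. Among exons of 10 bases or less, 16 of 44 were skipped by a new combination. The cause of this difference with length was not tested.

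**Figure D2:**
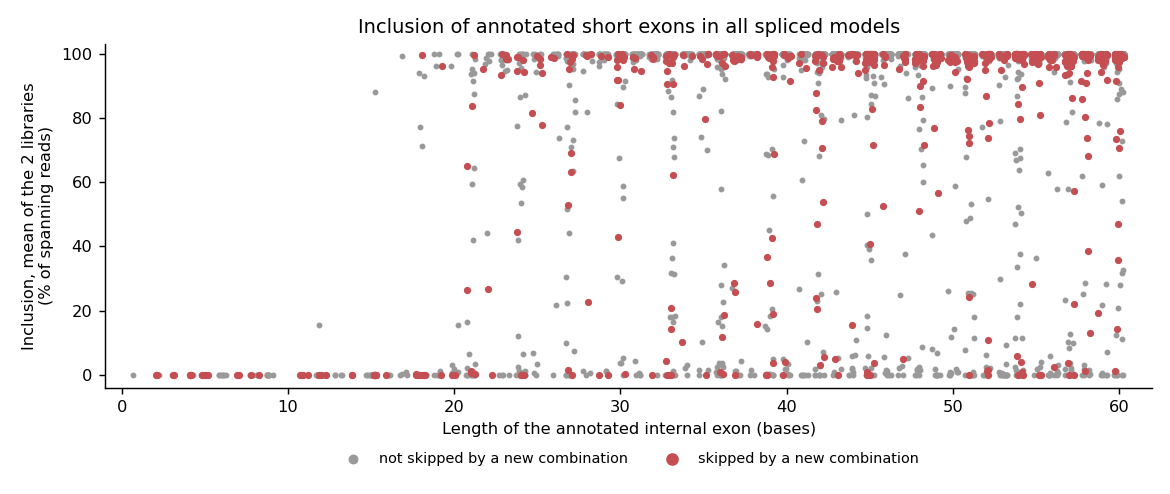
Each point is an annotated internal exon of 60 bases or less with at least 20 spanning reads in each library, by its length in bases and its inclusion (mean of the 2 libraries, % of spanning reads in spliced models of any class), in red where a new combination skips it. All 44 exons of 10 bases or less lie at 0, while the median from 21 bases upward is above 97%.

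The other leading chains sorted as skipping differed from the nearest transcript in other ways. Dctn1 encodes the largest dynactin subunit, which links cargo to the motor dynein. The leading chain had 272 of 535 reads in replicate 2 (50.8%), against 182 of 446 in replicate 1 (40.8%). It includes an annotated coding exon of 21 bases at 6:83187764-83187784 that its nearest annotated transcript lacks, and skips an 18-base exon at 6:83186428-83186445 that was in 0 spanning reads. The 21-base exon was in 327 of 482 spanning reads in replicate 2 (67.8%) and 240 of 386 in replicate 1 (62.2%), so both forms were read in each library. Idh3b, the beta subunit of the mitochondrial NAD-dependent isocitrate dehydrogenase, had 640 of 713 reads (89.8%) in replicate 2, against 591 of 658 (89.8%) in replicate 1 on a chain whose last acceptor lies 289 bases further on than in the nearest annotated transcript.

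Alternative first exons were led by Aldoa, the aldolase of glycolysis, whose several promoters are known to use different first exons. A chain of 8 introns held 9654 of 12416 reads in replicate 2 (77.8%), against 15255 of 17899 in replicate 1 (85.2%). It alone made up 14.3% of all reads of new combinations in replicate 2 and 21.3% in replicate 1. Its first intron, 7:126797777-126800001 on the minus strand, is annotated in 1 M21 transcript, whose 3′ end is marked as not found, and every junction of the chain is annotated. Among reads that joined any donor to that acceptor, this first intron took 9694 of 11483 (84.4%) in replicate 2 and 15327 of 16828 (91.1%) in replicate 1. The donor of an intron of 1268 bases took 13.7% in replicate 2 and 7.37% in replicate 1, and that of 2511 bases, used by the nearest annotated transcript, 1.23% in replicate 2 and 0.897% in replicate 1.

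Ndrg2, a stress-responsive gene named for its relation to N-myc, was split between first exons. The new chain of 15 introns held 1541 of 4046 reads in replicate 2 (38.1%), against 1676 of 4023 in replicate 1 (41.7%). At the acceptor shared by both forms, the new combination's donor took 47.6% of reads in replicate 2 and 47.7% in replicate 1. The donor of the nearest annotated transcript took 50.7% in replicate 2 and 50.3% in replicate 1. Both first introns are annotated, that of the new combination in 2 transcripts and the other in 5. The fall in the share of the gene passed the test described below (adjusted p = 0.0403 by Fisher's exact test), but not over multi-exon models alone, where the chain held 45.3% in replicate 2 and 46.1% in replicate 1 (adjusted p = 1.00 by Fisher's exact test).

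**Figure D3:**
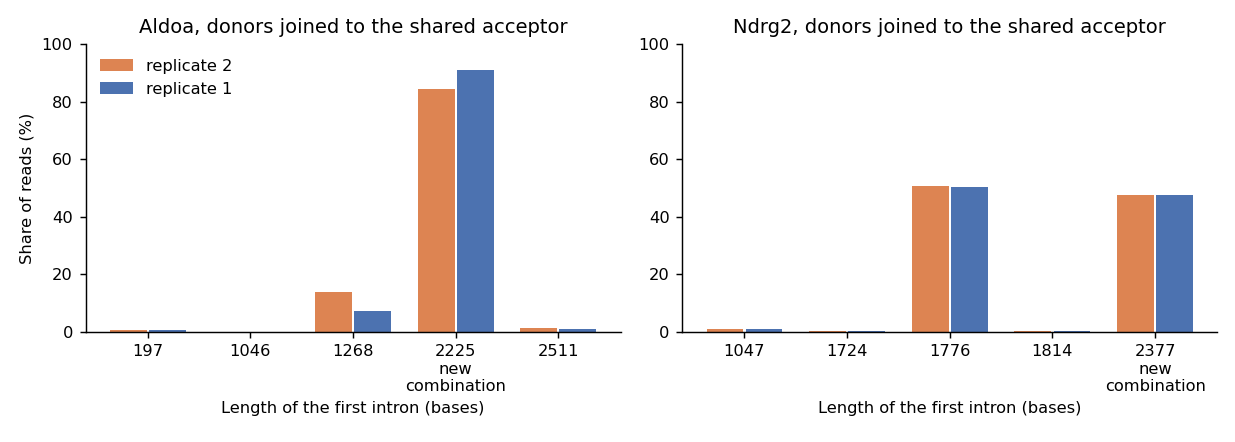
Share of reads (%) that joined each donor to the acceptor shared by the first introns of Aldoa and Ndrg2, by the length of the intron in bases, in replicate 2 and replicate 1. In Aldoa the donor of the new combination holds 84.4% in replicate 2 and 91.1% in replicate 1, and in Ndrg2 47.6% in replicate 2 and 47.7% in replicate 1.

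Other leading chains of this kind were not new first exons in the plain sense. Srl encodes sarcalumenin, a calcium-binding protein of the sarcoplasmic reticulum, and its chain, with 1951 of 3809 reads in replicate 2 (51.2%), against 2005 of 4045 in replicate 1 (49.6%), differed by the 3 bases AAG at the end of its first intron. Tmed2, a member of the p24 cargo receptors of the secretory pathway, included its 21-base coding exon in 641 of 679 spanning reads in replicate 2 (94.4%) and 557 of 630 in replicate 1 (88.4%). The antizymes Oaz1 and Oaz2 differed from the nearest annotated transcript by the drawn gap alone. The Oaz1 chain had 1302 of 1360 reads in replicate 2 (95.7%), against 1401 of 1466 in replicate 1 (95.6%), and the Oaz2 chain 386 of 409 (94.4%) in replicate 2 and 440 of 478 (92.1%) in replicate 1. In all, 8 chains in 5 genes read through an annotated gap of under 10 bases, with 1741 reads in replicate 2 and 1894 in replicate 1.

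Moves of a splice site by a few bases were common. Of 2486 chains with a moved acceptor, 578 moved it by 3 bases, and 52.9% moved it by a multiple of 3. In 409 of the 578 the exon lost the 3 bases and in 169 it gained them. Of 2239 chains with a moved donor, 218 moved it by 4 bases, 175 of them with a gain of 4, and 37.2% moved by a multiple of 3. A site that M21 does not annotate for the gene lay somewhere in 835 of the 2486 chains and 701 of the 2239. The acceptor moves of 3 bases held 4652 of the 9264 reads with a moved acceptor in replicate 2 and 4777 of 8932 in replicate 1. Ctbp1, a transcriptional corepressor, had 393 of 636 reads (61.8%) in replicate 2, against 413 of 674 (61.3%) in replicate 1 on the form that keeps CAG. Map4k5, a protein kinase, had 53 of 58 reads (91.4%) in replicate 2, against 41 of 44 (93.2%) in replicate 1 on the form without its CAG. Gbe1, the glycogen branching enzyme, had 113 of 127 reads (89.0%) in replicate 2, against 146 of 168 (86.9%) in replicate 1 on a chain whose donor and acceptor both sat 4 bases from the annotated ones. The spliced sequence of that chain is letter for letter that of the annotated one, so the 2 models describe the same spliced sequence. In all, this was true of 5 of the 13 chains in which both sites had moved by the same distance. In 5 the spliced sequence differed, and 3 could not be compared because not all of their bases are annotated.

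**Figure D4:**
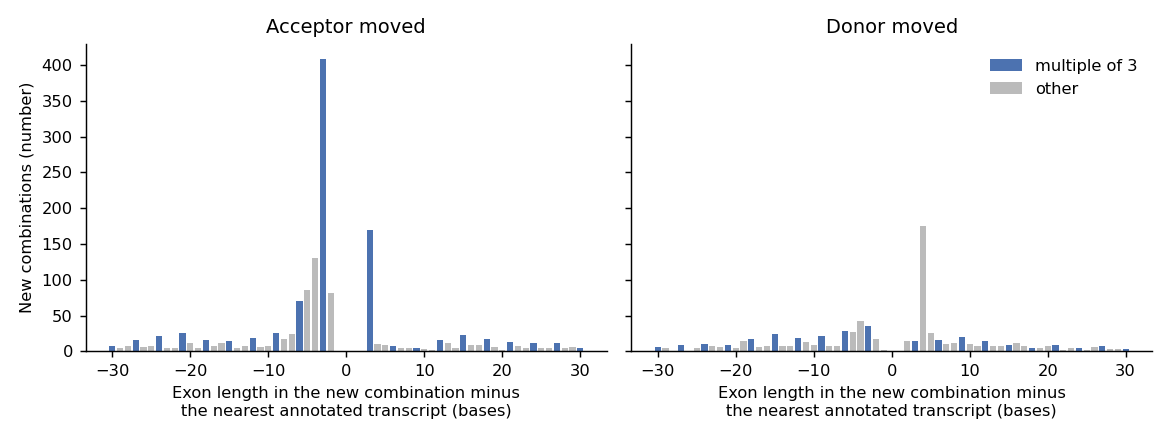
Number of new combinations by the change in exon length, in bases, where only an acceptor (left) or only a donor (right) moved by 30 bases or less relative to the nearest annotated transcript, with multiples of 3 in blue. Acceptors peak at a loss of 3 bases with 409 chains, and donors at a gain of 4 with 175.

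New pairings were led by muscle genes whose reads leave the annotation. Mybpc1 encodes the slow form of myosin-binding protein C, a thick filament protein that is rich in alternative exons. It had 81 distinct chains. Its reads held exons of 36 and 39 bases, at 10:88575129-88575164 and 10:88575842-88575880, that M21 does not annotate. The first was in 1424 of 2913 spanning reads in replicate 2 (48.9%) and 1501 of 3511 in replicate 1 (42.8%), and the other in 1422 of 2911 (48.8%) in replicate 2 and 1569 of 3499 (44.8%) in replicate 1. An annotated coding exon of 42 bases next to them was in 86.1% of spanning reads in replicate 2 and 72.2% in replicate 1, and one of 59 bases near the 3′ end in 24.7% and 31.7%. Combined, these choices gave chains of 606, 507 and 285 reads in replicate 2 and 354, 591 and 435 in replicate 1. A chain of 153 reads in replicate 2 and 41 in replicate 1 also lacks an annotated exon of 43 bases. That exon was in 93.5% of spanning reads in replicate 2 and 98.3% in replicate 1.

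Bin1, which shapes the transverse tubules of muscle, held an unannotated exon of 45 bases in 772 of 777 spanning reads in replicate 2 (99.4%) and 863 of 873 in replicate 1 (98.9%). Its leading chain had 480 of 807 reads (59.5%) in replicate 2, against 521 of 898 (58.0%) in replicate 1, and was classed NIC in replicate 1 but as holding a new site in replicate 2. Acta1, the skeletal actin, gave 372 of 68399 reads (0.544%) in replicate 2, against 420 of 74992 (0.560%) in replicate 1 to a chain with an added exon of 90 bases before the coding sequence, a small share in both libraries. Nexn, or nexilin, an actin-binding protein of the Z-disc, had 294 of 738 reads (39.8%) in replicate 2, against 273 of 494 (55.3%) in replicate 1 on a chain of 12 introns. Uchl3, a ubiquitin hydrolase, had 53 of 61 reads (86.9%) in replicate 2, against 42 of 50 (84.0%) in replicate 1 on a chain without an exon of 12 bases. The exon before it is also longer in this chain, with the donor at 101654120 against 101654106 in the nearest annotated transcript. The chain was sorted as an alternative first exon.

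Tnnt3, the fast troponin T, is known for a run of short coding exons near its start that are mixed during muscle maturation. The new pairing of this gene with the largest rise in share had 154 of 2044 reads in replicate 2 (7.53%), against 60 of 1669 in replicate 1 (3.59%), with 1 unannotated site. This chain passes over annotated exons of 12, 14, 15, 18, 18 and 19 bases. The exon before them is also longer in it, with the unannotated donor at 142501725 against 142501655 in the nearest annotated transcript. Those of 12, 14 and 15 bases and one of 18 were in 0 spanning reads of both libraries, and the most frequent of the run, that of 19 bases, was in 17 of 1206 (1.41%) in replicate 2 and 8 of 1132 (0.707%) in replicate 1.

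Intron retention gave rare chains. Of 4014 distinct retained introns the median length was 557 bases, against 1475 for the 190667 annotated introns of genes with a read, and 792 were retained in both libraries. Only 18 chains of this kind had at least 10 reads. Ankrd23, a muscle ankyrin repeat protein, retained each of 3 short introns in a chain of its own: that of 104 bases with 61 of 4244 reads in replicate 2 (1.44%), against 68 of 4153 in replicate 1 (1.64%), that of 91 bases with 41 (0.966%) and 38 (0.915%), and that of 87 bases with 18 (0.424%) and 26 (0.626%). Myoz1, a calcineurin-binding Z-disc protein, kept an intron of 372 bases in 18 of 2517 reads (0.715%) in replicate 2, against 30 of 3168 (0.947%) in replicate 1. Atp2a1 was also among the leading chains of this kind, with 31 of 194599 reads in replicate 2, against 25 of 201493 in replicate 1 on a chain that also holds 1 unannotated donor.

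The share of new combinations is given here by groups of genes, with no test between them. Among genes with a new combination, the median was 33.3% at 1 to 9 reads over both libraries and 2.83% from 100 to under 1000. It was 0.961% from 1000 to under 10000 and 0.777% at 10000 or more. Each of these genes has at least 1 read on a new combination, so a gene of few reads cannot have a low share. The part of this limit in the fall was not tested, and the groups differ in depth. The median share of a gene's reads, counting a chain's reads in models of any class, was 1.56% over the 5025 genes that had 20 reads or more in both libraries. Genes with known muscle splice variants had a median of 17.0% over 39 genes, with 45 of 47 carrying a new combination, and RNA-binding splicing regulators 10.4% over 29 genes, with 33 of 42. Among the regulators, Hnrnpk, an abundant nuclear RNA-binding protein, had 89.1% of its reads on new combinations in replicate 2 and 92.8% in replicate 1, and Mbnl2, a muscleblind splicing factor, 87.9% and 81.8%. Sarcomere genes (filaments and Z-disc) had 1.33% over 49 genes, with 47 of 51 carrying one, and excitation-contraction coupling genes 3.13% over 28, with 25 of 30.

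Other lists had these medians. The nuclear genes of oxidative phosphorylation stood at 0.256% over 40 genes, with 29 of 40 carrying a new combination, and glycolysis and glycogen genes 0.926% over 23, with 19 of 24. With Aldoa, new combinations made up 19.8% of the summed reads of the glycolysis list in replicate 2 and 26.0% in replicate 1. Cytosolic ribosome genes, which have short messengers, had a median of 0 over 43 genes, with 18 of 48 carrying one. Of the marker lists of other cell types, adipocyte genes had 14 chains and a median of 0.0945% over 4 genes, endothelial and smooth muscle genes 28 and 3.4% over 10, and fibroblast and tendon genes 58 and 0.510% over 10. Nerve and Schwann cell genes had 9 chains and a median of 22.6% over 2 genes, and blood and macrophage genes 2 chains and a median of 0 over 4. Pmp22, a myelin protein, had most of the nerve reads, with 28 of 84 in replicate 2 (33.3%) and 165 of 395 in replicate 1 (41.8%).

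The share of the gene that a new combination took was compared between the libraries with Fisher's exact test, two-sided, for chains of 20 or more reads summed, in genes of 20 or more reads per library. Of 7071 chains of all classes tested, 2.74% passed an adjusted p of 0.05 (Benjamini-Hochberg over all 7071). Of the 727 new combinations among them, 22 in 14 genes passed (3.03%), against 2.71% of the 6344 other chains, a share near the background. In replicate 2 the share was higher for 6 and lower for 16. The median difference over the 727 was 2.34 percentage points in size. By kind, 14 of 434 new pairings, 5 of 213 alternative first exons, 3 of 69 skipping chains and 0 of 11 retention chains passed; at an unadjusted p under 0.05, 1 retention chain did.

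**Figure D5:**
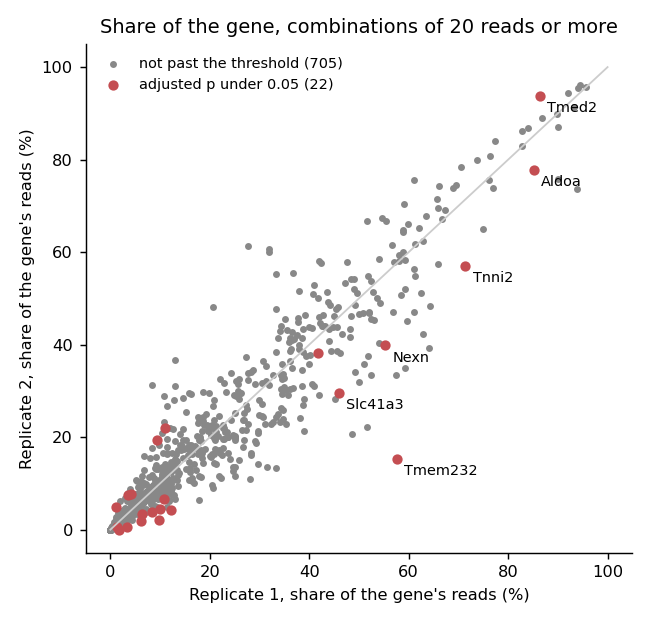
Share of the gene's reads (%) in replicate 2 (vertical) against replicate 1 (horizontal) for the 727 new combinations tested, with the 22 past an adjusted p of 0.05 by Fisher's exact test in red and the line of equal shares in grey. Most points lie along the line, and the red points of Tnni2, Nexn, Slc41a3 and Tmem232 lie below it.

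Over all 7071 chains tested 2.74% passed, and over the 727 new combinations 3.03%. Of the chains of sarcomere genes, 14 of the 58 tested were among the 22, with 5 of 64 in genes with known splice variants, 1 of 43 in excitation-contraction coupling, 1 of 20 in glycolysis and 1 of 16 in splicing regulators. The lists differ in depth and overlap, and 4 of those 5 are Tnnt3 chains counted among the 14 as well. Mybpc1 had 6 of the chains and Tnnt3 had 4, and chains of 1 gene share its reads, so they do not move independently. In Mybpc1, 2 of the 6 rose and 4 fell. A chain of 30 introns with both unannotated exons rose to 606 of 3131 reads in replicate 2 (19.4%), against 354 of 3808 in replicate 1 (9.30%; adjusted p = 7.57e-31 by Fisher's exact test). One of 29 introns with both, and without the 43-base exon, rose to 153 reads in replicate 2 (4.89%), against 41 in replicate 1 (1.08%; adjusted p = 1.08e-19 by Fisher's exact test). Another of 29 introns with both fell to 66 reads in replicate 2 (2.11%), against 373 in replicate 1 (9.80%; adjusted p = 1.79e-40 by Fisher's exact test), and one with the 42-base exon and neither of them fell to 141 reads in replicate 2, against 381 in replicate 1 (adjusted p = 2.89e-16 by Fisher's exact test). The other chains that fell had 17 reads in replicate 2 against 52 in replicate 1, and 1 against 63. Of the 4 Tnnt3 chains, 2 rose and 2 fell. The one described above rose to 7.53% in replicate 2, against 3.59% in replicate 1 (adjusted p = 2.11e-05 by Fisher's exact test), and the falls were to 3.91% in replicate 2, against 8.45% in replicate 1 (adjusted p = 1.06e-06 by Fisher's exact test), and to 6.70% in replicate 2, against 10.8% in replicate 1 (adjusted p = 0.000704 by Fisher's exact test). Slow fibre genes had more reads in replicate 2 as well, as given at the start, and their part in these values was not tested.

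Qk, or quaking, an RNA-binding regulator of splicing, had 119 of 542 reads in replicate 2 (22%), against 21 of 192 in replicate 1 (10.9%) on a chain with an unannotated acceptor 24 bases inside an exon (adjusted p = 0.0247 by Fisher's exact test). Tmed2 rose by 7.26 points (adjusted p = 0.000872 by Fisher's exact test). Aldoa fell by 7.47 points (adjusted p = 9.57e-59 by Fisher's exact test). In replicate 2 the adipocyte and myelin markers were lower and the slow fibre genes higher, and a link of either to this fall was not tested. Tmem232 fell to 11 of 72 reads in replicate 2 (15.3%), against 15 of 26 in replicate 1 (57.7%; adjusted p = 0.00397 by Fisher's exact test). Slc41a3, of a family of magnesium transporters, fell to 82 of 278 in replicate 2 (29.5%), against 91 of 198 in replicate 1 (46.0%; adjusted p = 0.0146 by Fisher's exact test). Mtfr1l fell to 14 of 332 in replicate 2 (4.22%), against 47 of 388 in replicate 1 (12.1%; adjusted p = 0.00718 by Fisher's exact test).

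Part of these calls depended on which reads of the gene were counted. Tnni2 fell to 57.1% of the gene in replicate 2, against 71.4% in replicate 1 (adjusted p = 4.19e-29 by Fisher's exact test), and Nexn to 39.8% in replicate 2, against 55.3% in replicate 1 (adjusted p = 1.32e-05 by Fisher's exact test). Counted over multi-exon known and new models alone, which leaves out truncated and single-exon ones, Tnni2 stood at 89.9% in replicate 2 and 92.7% in replicate 1 (adjusted p = 0.151 by Fisher's exact test) and Nexn at 76.4% in replicate 2 and 76.7% in replicate 1 (adjusted p = 1.00 by Fisher's exact test). Qk, at 23.8% in replicate 2 and 13.3% in replicate 1, and Tmem232, at 44.0% in replicate 2 and 68.2% in replicate 1, did not pass either (adjusted p = 0.319 and 1.00 by Fisher's exact test). With that denominator, chosen after the data were seen, 14 of the 22 remained past the threshold. That is 14 of 711 new combinations tested (1.97%), where 0.692% of all 5784 chains passed. They include the Aldoa chain with 84.0% in replicate 2 and 90.4% in replicate 1 and the leading Mybpc1 chain that rose, with 20.9% in replicate 2 and 10.2% in replicate 1. By edgeR's exact test on the chain counts themselves, the Aldoa chain had an adjusted p of 0.0455 with library totals and 0.0526 with TMM scaling. With TMM, Tmed2 (adjusted p = 0.944 by edgeR's exact test) and Ndrg2, Nexn, Slc41a3 and Tmem232 (each 1.00) did not pass, while 2.49% of all 7071 chains did with either scaling.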

How the data were processed

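The deposited tables hold counts: the authors' number of long reads per transcript model in each library, with no normalization. The deposited transcript annotations name TALON as their source, and per the labels the build is mm10. Exon numbers, lengths and coordinates were used as deposited. Aligner and read filters were not given in the sources used here. Annotated intron chains in the deposited files were the same as in GENCODE M21. Depth was 1359923 reads in replicate 2 and 1349298 in replicate 1.

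Scripts in Python 3.11.15 (pandas 2.3.3, scipy 1.17.1) joined NIC models of annotated genes by gene and intron chain, and 53 and 37 NIC models outside annotated genes were left out. Reads of a chain in any class count in its share of the gene, and shares of the library and of the kinds count models classed NIC. Kinds were called in the order skipping, first exon, retention, new pairing. Skipping is an unannotated junction between sites of 1 annotated transcript. A first-exon chain starts at the end of an annotated first exon and is otherwise unbroken in an annotated transcript after its first intron. Retention spans a whole annotated intron that no annotated exon spans. An intron under 10 bases was treated as a gap. Inclusion counts reads whose model holds an exon with its annotated boundaries, over those plus reads whose intron spans it. Fisher's exact test (scipy) was adjusted over all chains of at least 20 reads. It was tested on simulated data. As an alternative, edgeR 4.0.16 (R 4.3.3) ran its exact test on chain counts at a preset dispersion of 0.01. Others were read minimums, denominators, kinds and each library alone. Named chains are the 6 of each kind with most reads (5 or more in each library), the 10 with the highest share of the gene, and the 5 largest and 5 smallest differences in share (replicate 2 minus replicate 1) among called chains. Up to 4 genes of each list could be named. The members, lists and rules were chosen with earlier results of these data known. Genes named outside the rule (Ktn1, Arhgef10l and Myh7), the sort by the nearest transcript, the unannotated sites and the multi-exon denominator were chosen after their values were seen.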

Additional observations from a re-analysis of the deposited data

How the results depend on the processing

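The share of reads was 5.71% over spliced models in annotated genes alone, 4.57% with chains of at least 2 reads and 4.37% with those in both libraries. Without Aldoa it was 4.20%, and 4.23% without chains that hold an unannotated site. With 1 library left out it ranged from 4.96% to 5.31%. The number in both libraries was 3069 at 2 reads in each and 613 at 10. Exon skipping took 11.4% of reads with chains of at least 10 reads, 10.3% when exons of 30 bases or less did not count, 18% without Aldoa and 16.9% without unannotated sites. Alternative first exons took 51.2%, 29.4% and 50.4% with at least 10 reads, without Aldoa and without unannotated sites. New pairings took 44.3% when exons of 30 bases or less did not count, 48.9% without Aldoa and 29.7% without unannotated sites. Intron retention took 0.568% with at least 10 reads and 3.63% without Aldoa. With 1 library left out, skipping ranged from 14.7% to 14.9%, first exons from 39.3% to 44.9%, new pairings from 37.8% to 42.5% and retention from 2.64% to 3.35%. The share of skipped exons that are a multiple of 3 was 48.6% at 10 reads, 47.0% for junctions over exactly 1 exon and 46.9% for coding exons, and ranged from 44.2% to 44.9% with 1 library left out.

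Fisher's exact test called 56 new combinations against all other reads of the library (7.70%, with 9.25% of all chains) and 14 over multi-exon models (1.97%, with 0.692%). Of the 22, 9 of 516 tested were chains of annotated sites only. Leaving out Aldoa, unannotated sites or single-exon models was chosen after seeing the data. edgeR's exact test called 28 with library totals and 27 with TMM scaling, sharing 12 and 11 with the 22 (3.85% and 3.71%, with 2.49% of all chains in each). The difference in Nexn turned to 0.00139 points of the library, and to log2 changes of 0.10 and 0.11 by edgeR with library totals and TMM. At 10 reads or no minimum, 1.71% and 0.0894% were called, with 1.99% and 0.168% of all chains. With no minimum of reads, Ndrg2, Mtfr1l, Slc41a3 and Qk no longer passed, and against all other reads of the library Ndrg2, Tmed2, Slc41a3, Tmem232 and Nexn did not. The cause of these moves was not tested. No paired analysis was possible because the libraries form 1 group. Of the 24139 chains, 15387 had 1 read, a depth at which a difference between the libraries was not detectable.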
